A study of Mus musculus with 12 samples.

Results

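The 9 genes described here encode the Jun proteins (*Jun*, *Junb* and *Jund*), the Fos proteins (*Fos*, *Fosb*, *Fosl1* and *Fosl2*), the large Maf protein *Maf* and the stress-induced factor *Atf3*. They were taken from a written list of AP-1 and Maf genes, with each symbol matched to the identifier in the expression table, and all 9 were found among its 54532 genes. The libraries were made from limb mesenchyme of E14.5 mouse embryos sired by *Prrx1*-Cre males, so that both groups carried a Cre recombinase driven by the *Prrx1* enhancer. In the 6 iCreb5 libraries the recombined *Rosa26* allele expressed HA-tagged bovine Creb5 with GFP from an internal ribosome entry site, and in the 6 tdTomato libraries it expressed the red fluorescent protein tdTomato. Cells were sorted by fluorescence before RNA was extracted. The labels assign 3 libraries of each group to the 3rd litter and 1 of each to the 4th, 5th and 6th litters, which are called litters 3 to 6 here, and every litter has its own batch label. The labels do not say if a library came from a single embryo or from several. The Creb5 made by the transgene was bovine, and which of its reads were counted under mouse *Creb5* is likewise unstated.

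Jun and Fos proteins carry a basic region that binds DNA and a leucine zipper through which they pair. A Fos protein binds DNA only with a partner such as a Jun protein, and the pair, called AP-1, recognises a site with the letters TGANTCA. CREB and ATF proteins belong to the same bZIP class and bind the cyclic AMP response element TGACGTCA, and some of them, Creb5 included, can pair with Jun. *Fos*, *Fosb*, *Jun*, *Junb* and *Atf3* are immediate early genes, which growth factors, stress and the dissociation of a tissue switch on within minutes. In the skeleton, mice without *Fos* lack osteoclasts, and mice without *Maf* show delayed maturation of growth plate chondrocytes.

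The sequences before the start sites are shown because promoters of immediate early genes are known for cyclic AMP response elements, the sites that proteins of the CREB class bind. RefSeq promoters on GRCm38.p6 were matched for 7 of the 9 genes, all but *Maf* and *Fosl1*, and the 250 bases before each RefSeq start were searched on both strands. That start was within 30 bases of the annotated gene start for *Fos*, *Junb*, *Fosb* and *Jun*, but 1210 bases upstream of it for *Jund* and 671 and 34706 bases downstream of it for *Fosl2* and *Atf3*, so those 3 windows lie away from the annotated starts. The first 5 letters of the element, TGACG, stood in 4 of the 7 (*Fos*, *Junb*, *Fosb* and *Atf3*), against 17.8% of 32851 promoters of the same length. The *Fos* promoter held it at 129 to 125 and at 66 to 62 bases before the start, the *Junb* promoter at 106 to 102 and the *Fosb* promoter at 60 to 56, while that of *Atf3* held its reverse complement at 7 to 3. The *Jun* promoter held TGACATCA, a variant AP-1 site known from this promoter, at 45 to 38 bases before the start, and 2.93% of all promoters held it. The letters TGACGTCA and TGANTCA, the Maf recognition element and the CArG box, a site of serum response factor, were each in 0 of the 7 windows, against 1.55%, 6.75%, 0.00304% and 1.47% of all promoters. TGACGTCA contains TGACG, so hits of the element count under both. Below, each sequence runs 5′ to 3′ on the gene's own strand, with TGACG (*Fos*, *Junb* and *Fosb*) or TGACATCA (*Jun*) in capitals. They lie at chr12:85473640-85473889 (plus strand), chr8:84978749-84978998 (minus strand), chr7:19310046-19310295 (minus strand) and chr4:95052223-95052472 (minus strand). A match describes these letters and does not show binding. Sites more than 250 bases before a start were not searched, so 0 of 7 holds for these windows only.
Fos: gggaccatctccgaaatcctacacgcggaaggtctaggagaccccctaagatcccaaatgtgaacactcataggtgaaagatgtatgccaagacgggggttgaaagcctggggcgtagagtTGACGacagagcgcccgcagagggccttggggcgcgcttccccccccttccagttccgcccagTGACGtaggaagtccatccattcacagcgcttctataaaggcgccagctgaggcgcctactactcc
Junb: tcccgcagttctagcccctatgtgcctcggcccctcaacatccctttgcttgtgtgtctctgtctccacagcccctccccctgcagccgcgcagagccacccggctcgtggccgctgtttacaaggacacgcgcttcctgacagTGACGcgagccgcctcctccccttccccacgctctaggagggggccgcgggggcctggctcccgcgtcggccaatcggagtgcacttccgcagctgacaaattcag
Fosb: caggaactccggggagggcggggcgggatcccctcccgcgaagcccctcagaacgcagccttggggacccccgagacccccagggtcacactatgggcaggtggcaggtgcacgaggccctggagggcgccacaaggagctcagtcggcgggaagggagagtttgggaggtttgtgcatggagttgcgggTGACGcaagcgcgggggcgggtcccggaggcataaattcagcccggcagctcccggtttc
Jun: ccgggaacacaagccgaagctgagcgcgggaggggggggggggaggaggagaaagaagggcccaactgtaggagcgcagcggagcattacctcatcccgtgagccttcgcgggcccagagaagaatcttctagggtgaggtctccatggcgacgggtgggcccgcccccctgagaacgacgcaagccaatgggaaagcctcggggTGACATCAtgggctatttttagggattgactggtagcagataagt

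Depth recovered from the table ran from 21.6 to 49.2 M reads (M for 1000000) in iCreb5 libraries and from 9.02 to 53.3 M in tdTomato libraries. Levels are given as normalised counts, the unit of the deposited table. *Creb5* itself averaged 2799 ± 214 in iCreb5 cells and 1803 ± 299 in tdTomato cells (SD, n = 6 each), and its groups did not overlap (log2 change 0.65, adjusted p = 0.00219). *Prrx1*, whose enhancer drives the Cre, averaged 4158 ± 575 in iCreb5 cells and 4986 ± 943 in tdTomato cells (limma, adjusted p = 0.352). Of 6 limb mesenchyme markers 0 passed the test in either direction, against 6.72% of all genes tested, so a count of 0 is near that share. Markers of other cells did pass it, where 3.87% of all genes tested were higher in iCreb5 cells and 2.85% lower. All 5 chondrocyte markers (*Sox9*, *Col2a1*, *Acan*, *Matn1* and *Col9a1*) were lower in iCreb5 cells, with summed levels of 61772 to 95120.5 in iCreb5 libraries and 116213 to 298019 in tdTomato libraries. Of 15 macrophage and leukocyte markers 14, all but *Itgam*, were higher, with summed levels of 2684 to 12063 in iCreb5 libraries and 669 to 1232 in tdTomato libraries. All 4 osteoblast markers tested (*Sp7*, *Runx2*, *Ibsp* and *Dmp1*) were lower, with summed levels of 1805 to 12098 in iCreb5 libraries and 6130 to 36914 in tdTomato libraries. *Ibsp* did not pass with edgeR (adjusted p = 0.0728) or with limma on equal library totals (adjusted p = 0.0519). Of 5 endothelial markers 4 were higher (*Pecam1*, *Cdh5*, *Kdr* and *Tek*), and of 3 Schwann cell markers *Sox10* was lower. Endothelial sums overlapped, at 1219 to 3344 in iCreb5 libraries and 900 to 1340 in tdTomato libraries. Within litters 4 to 6 alone only 1 of the 5 was higher, against 1.91% of all genes. *Kdr* and *Tek* were among those that did not pass there (limma, adjusted p = 0.273 and 0.0618). Without tdTomato libraries 3a and 5b, 2 of the 5 endothelial markers were higher, where 555 of the 16733 genes tested were. Among the macrophage markers, *Ptprc* and *Itgam* were at 0 in at least 1 tdTomato library, and no chondrocyte marker was at 0 in any library. *Ptprc*, *Trem2* and *Aif1* had 10.3 or more in every iCreb5 library. Those values were enough by themselves to meet the filter on low values, 10 or more in at least 6 libraries. Their tdTomato medians were 2.22, 9.84 and 10.02. In sorted bulk cells, fewer cells of a type and less RNA per cell cannot be told apart.

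Of the 9 genes, only *Maf* passed the test of a difference between the groups: it was 1.56-fold higher in tdTomato cells. No Jun or Fos gene passed the test over all 12 libraries. *Fos* and *Junb* were nonetheless far higher in the iCreb5 libraries of litters 5 and 6 than in the other libraries, while in litters 3 and 4 they were near or below the tdTomato level. Groups were compared with limma on log2(value + 1), with p-values adjusted by Benjamini-Hochberg over all 16733 genes tested, a group that included all 9 genes. So 1 of 9 genes passed an adjusted p of 0.05, against 6.72% of all genes tested in either direction and 2.85% in the lower one, and 0 of 9 were higher, against 3.87%. At an unadjusted p of 0.05 the count of higher genes was also 0, against 9.93% of all genes, and so it was with edgeR, against 3.83% of all genes, and with DESeq2, against 5.51%, on the recovered reads. The median log2 change of the 9 was 0.08, and that of all genes tested was 0.00. In none of the 9 were the groups free of overlap, against 4.75% of all genes.

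**Figure D1:**
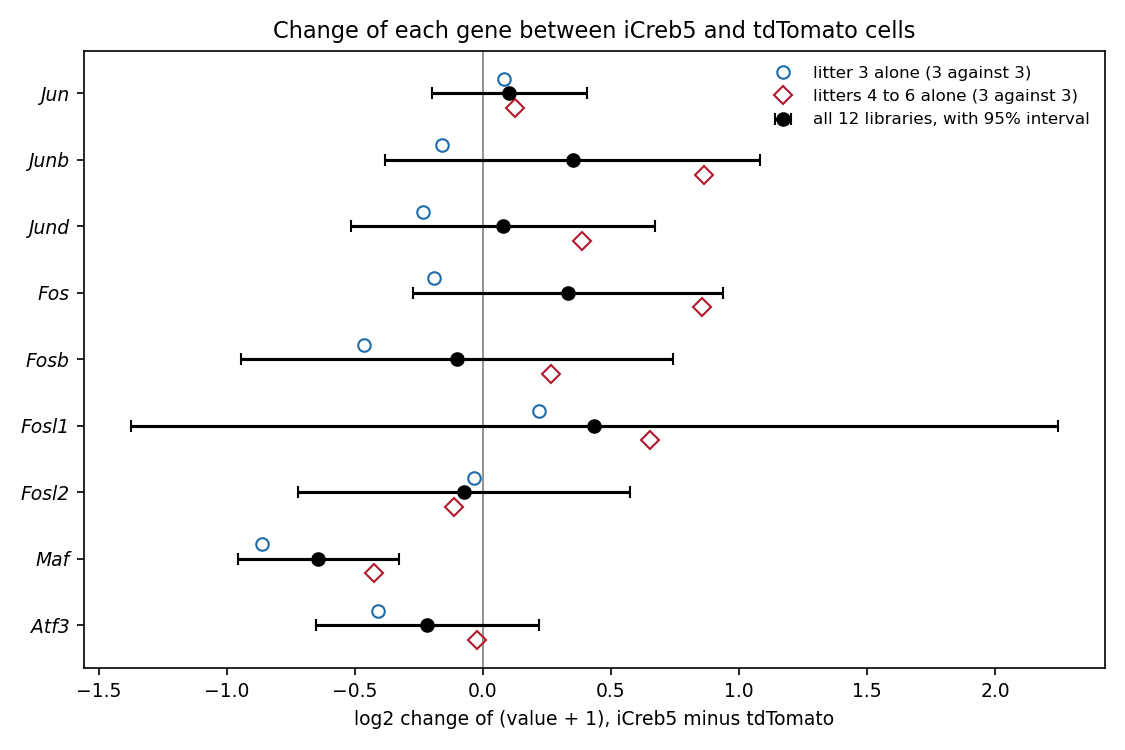
Log2 change of each gene (horizontal axis, iCreb5 minus tdTomato, of value + 1) over all 12 libraries with its 95% interval (black), within litter 3 (circles) and within litters 4 to 6 (diamonds). The interval of *Maf*, -0.96 to -0.33, is the only 1 of the 9 that leaves out 0.

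*Maf* (ENSMUSG00000055435; mm10, chromosome 8 from 115682942 to 115707794, minus strand, annotated transcripts of 1 to 3 exons) encodes a large Maf protein with roles in lens, cartilage and macrophages. In iCreb5 cells it had 489, 548 and 363 normalised counts in litter 3 and 514, 559 and 610.1 in litters 4, 5 and 6. In tdTomato cells it had 762, 799 and 959 in litter 3 and 763, 913 and 609 in litters 4, 5 and 6. The 5 tdTomato libraries of litters 3 to 5 were above every iCreb5 library, and the groups met only in litter 6, where the 2 values were level. The means were 514 ± 84.8 in iCreb5 cells and 801 ± 124 in tdTomato cells (SD, n = 6 each), and the log2 change was -0.64 ± 0.15 (SE, adjusted p = 0.0132). By litter the log2 difference was -0.86 in litter 3, -0.57 in litter 4, -0.71 in litter 5 and 0.00 in litter 6, so *Maf* was lower in iCreb5 cells in 3 of 4 litters. Within litter 3 alone *Maf* passed (adjusted p = 0.0434) as the only 1 of the 9, against 4.11% of all genes in either direction and 1.75% in the lower one. Within litters 4 to 6 it did not pass (adjusted p = 0.246), and 0 of 9 were lower, against 2.2% of all genes. The difference between the litter sets had an unadjusted interaction p of 0.152 and an adjusted p of 0.842. With litter as a replicate block *Maf* passed (adjusted p = 0.0159), and with the 3 libraries of litter 3 averaged per group beside that block it did not (adjusted p = 0.0988), so that 0 of 9 passed, against 5.46% of all genes. Its spread within groups was small, 0.25 on the log2 scale, against a median of 0.35 over all genes tested.

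In the same comparison the chondrocyte markers were lower and the macrophage markers higher in iCreb5 cells, and their part in the change of *Maf* was not tested. The chondrocyte sum was lower in every iCreb5 library than in any tdTomato library.

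Of 12 genes listed as targets or partners of Maf in cartilage, lens and macrophages, 9 were tested. Of these 3 rose and 4 fell, against 3.87% and 2.85% of all genes, and the median log2 change of the 9 was -0.61. The 4 that fell belong to cartilage. They were *Col27a1*, a fibrillar collagen gene (log2 change -1.22, adjusted p = 1.47e-05), *Col2a1*, the main cartilage collagen gene (-1.17, adjusted p = 0.00666), and *Sox5* (-0.94, adjusted p = 0.00087) and *Sox9* (-0.78, adjusted p = 0.00288), which encode cartilage transcription factors. *Sox9* did not pass within litters 4 to 6 alone (adjusted p = 0.0615). The 3 that rose belong to macrophages: the growth factor receptor gene *Csf1r* (3.02, adjusted p = 6.04e-05) and the complement genes *C1qa* (2.95, adjusted p = 0.000154) and *C1qb* (2.95, adjusted p = 5.42e-05). These 3 are also in the macrophage marker list, and *Sox9* and *Col2a1* are in the chondrocyte list. *Sox6*, a partner of Sox5, averaged 732 ± 53.1 in iCreb5 cells and 1167 ± 345 in tdTomato cells (adjusted p = 0.0725), and the integrin gene *Itga6* averaged 468 ± 177 in iCreb5 cells and 587 ± 77 in tdTomato cells (adjusted p = 0.35). Both were lower within litters 4 to 6 alone (log2 changes -1.03 and -0.92, adjusted p = 0.00438 and 0.0266), and *Sox6* was lower with edgeR (adjusted p = 0.0368) and DESeq2 (adjusted p = 0.00822) as well.

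*Fos* (ENSMUSG00000021250; mm10, chromosome 12 from 85473890 to 85477273, plus strand, 3 to 4 exons), the Fos gene most strongly tied to acute stimulation, had 7880.3, 8971 and 10812 normalised counts in the iCreb5 libraries of litter 3, 12104 in litter 4, 28078 in litter 5 and 27661 in litter 6. The tdTomato libraries had 8605, 13808 and 9545 in litter 3, 12365 in litter 4, 10523 in litter 5 and 12205 in litter 6. The iCreb5 libraries of litters 5 and 6 thus stood above all others, and the other 4 iCreb5 libraries lay between 7880.3 and 12104, within or just under the tdTomato range. The means were 15918 ± 9373 in iCreb5 cells and 11175 ± 1954 in tdTomato cells (SD, n = 6 each), a log2 change of 0.33 ± 0.29 (SE, 95% interval -0.27 to 0.94, adjusted p = 0.611). By litter the log2 difference was -0.19, -0.03, 1.42 and 1.18 in litters 3, 4, 5 and 6. The SD of *Fos* on the log2 scale was 0.81 among iCreb5 libraries and 0.26 among tdTomato libraries.

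**Figure D2:**
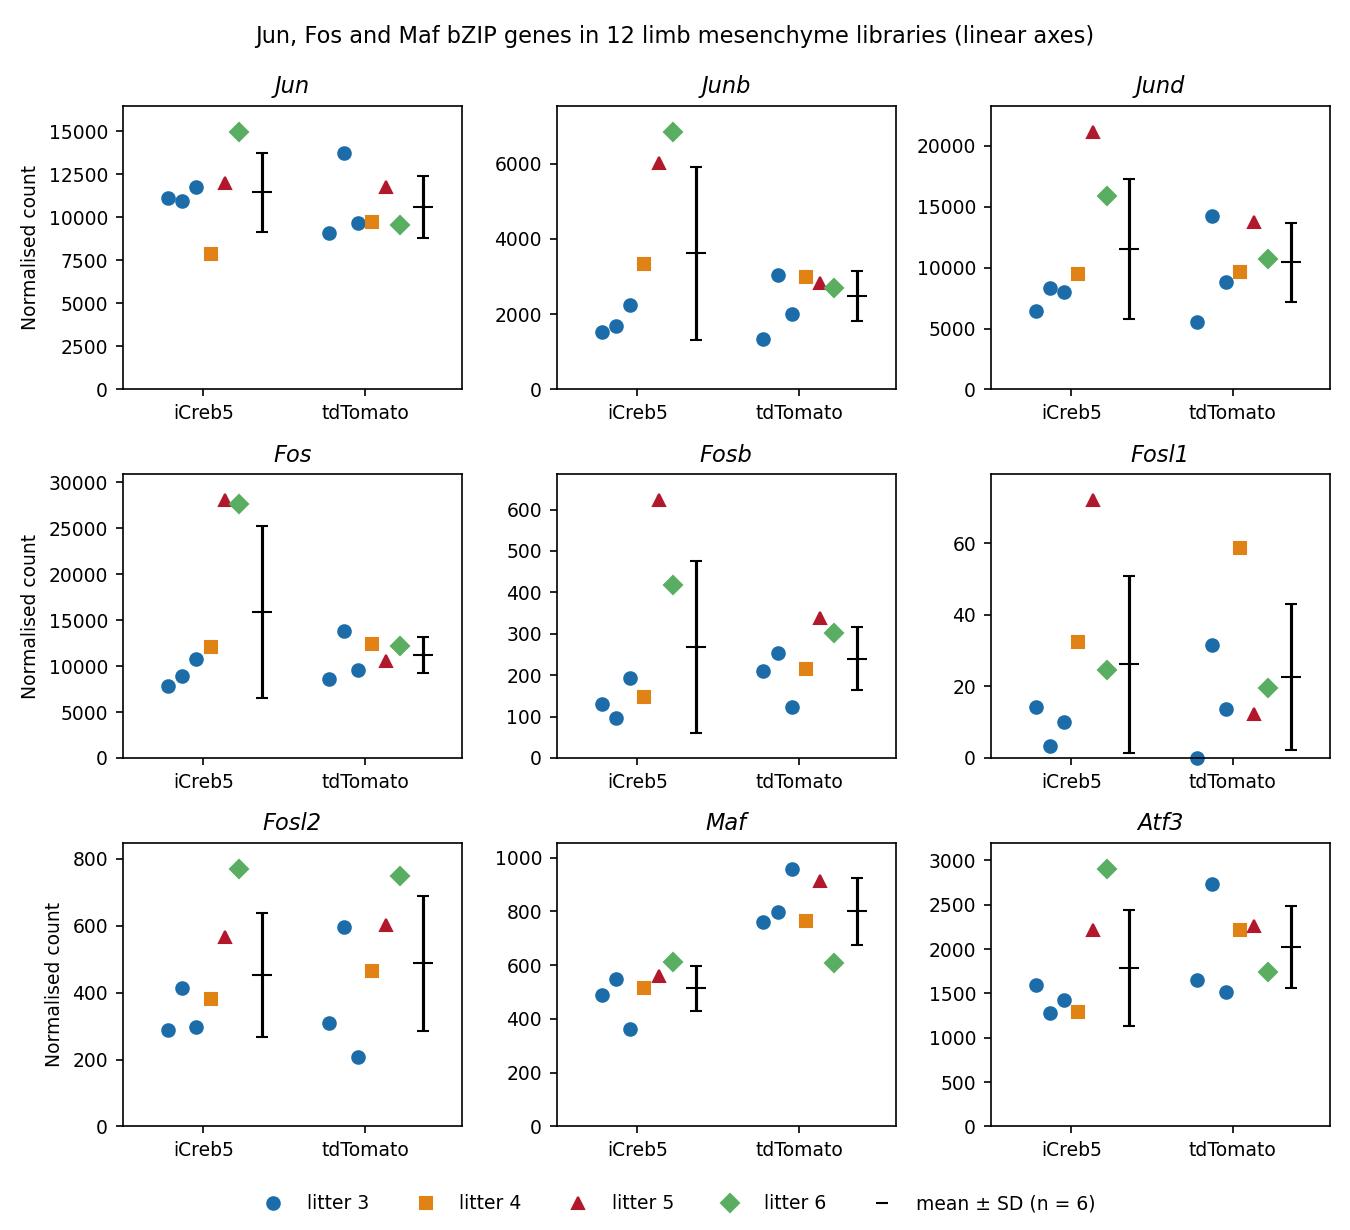
Normalised count (vertical axes, linear) of each of the 9 genes in the 6 iCreb5 and 6 tdTomato libraries, with symbols for the litter and bars for the mean ± SD (n = 6). *Fos* lies at 28078 and 27661 in the iCreb5 libraries of litters 5 and 6 and at or below 13808 in the 10 others, while *Maf* is lower in iCreb5 cells in litters 3, 4 and 5.

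The other Fos genes were expressed at far lower levels. *Fosb* (mm10, chromosome 7 from 19302696 to 19310051, minus strand), an immediate early gene like *Fos*, had a lowest value of 96.5, a median of 169.6 and a highest value of 623 in iCreb5 cells, against 122, 234 and 339 in tdTomato cells. Its highest values were again those of the iCreb5 libraries of litters 5 and 6, at 623 and 419, and its lowest, 96.5, was an iCreb5 library of litter 3. The log2 change was -0.10 ± 0.40 (SE, adjusted p = 0.936), although the mean was higher in iCreb5 cells, at 268 against 240.04 in tdTomato cells. *Fosl2* (mm10, chromosome 5 from 32135801 to 32157842, plus strand), which encodes the Fra-2 protein known from bone and cartilage, had a lowest value of 289, a median of 397 and a highest value of 771 in iCreb5 cells, against 208, 530.2 and 750.03 in tdTomato cells. Its groups overlapped almost wholly (log2 change -0.07, 95% interval -0.72 to 0.57, adjusted p = 0.937), and its values in litters 5 and 6 were 566 and 771 in iCreb5 cells and 602 and 750.03 in tdTomato cells. In those 2 litters, in which *Fos* was over 2-fold higher in iCreb5 cells, *Fosl2* was thus nearly level. *Fosl1* (mm10, chromosome 19 from 5447547 to 5455946, plus strand), which encodes the bone matrix regulator Fra-1, rested on few reads: 3 to 85 per iCreb5 library and 0 to 64 per tdTomato library. The library with 0 reads, a tdTomato library of litter 3, was the shallowest, and 3 reads there are worth 8.38 normalised counts. The 95% interval of its log2 change, -1.38 to 2.25, was the widest of the 9.

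*Junb* (ENSMUSG00000052837; mm10, chromosome 8 from 84974484 to 84978718, minus strand, 1 to 2 exons) encodes a Jun protein that is itself an immediate early product. It had 1528, 1697 and 2252 normalised counts in iCreb5 cells of litter 3 and 3322, 6026 and 6848 in litters 4, 5 and 6. In tdTomato cells it had 1340.1, 3034 and 2008 in litter 3 and 2984, 2837 and 2689 in litters 4, 5 and 6. The pattern was that of *Fos*, with the iCreb5 libraries of litters 5 and 6 highest and those of litter 3 among the lowest. Over all libraries the log2 change was 0.35 ± 0.34 (SE, 95% interval -0.38 to 1.08, adjusted p = 0.67). Within litters 4 to 6 it was 0.86 ± 0.20 (SE, n = 3 each, limma, adjusted p = 0.048), with higher values in iCreb5 cells in 3 of 3 litters. *Junb* was the only 1 of the 9 to pass there, against 4.11% of all genes in either direction and 1.91% in the higher one.

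*Jun* (ENSMUSG00000052684; mm10, chromosome 4 from 95049034 to 95052222, minus strand, a single exon) encodes c-Jun, a common partner of Fos proteins. It had a lowest value of 7890.1, a median of 11431 and a highest value of 14975 in iCreb5 cells, against 9082, 9694 and 13742 in tdTomato cells. *Jun* did not follow *Fos*: its lowest and its highest value were both iCreb5 libraries, of litter 4 (7890.1) and litter 6 (14975), and in litter 5 the groups were level. The log2 change was 0.10 ± 0.14 (SE, 95% interval -0.20 to 0.41, adjusted p = 0.774), the narrowest interval of the 9. *Jund* (mm10, chromosome 8 from 70698949 to 70700616, plus strand, a single exon), the Jun gene that most cells express without stimulation, had a lowest value of 6406, a median of 8922 and a highest value of 21167 in iCreb5 cells, against 5517, 10196 and 14225 in tdTomato cells. Here the iCreb5 libraries of litters 5 (21167) and 6 (15918) were the highest, followed by tdTomato libraries of litters 3 and 5. The log2 change of *Jund* was 0.08 ± 0.28 (SE, adjusted p = 0.927).

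*Atf3* (mm10, chromosome 1 from 191170296 to 191218039, minus strand, 4 to 5 exons), an ATF protein gene induced by many kinds of stress, had a lowest value of 1282, a median of 1513 and a highest value of 2908 in iCreb5 cells, against 1521, 1979 and 2729 in tdTomato cells. It was highest in the iCreb5 library of litter 6 (2908) and next in a tdTomato library of litter 3 (2729). In litter 5, where *Fos* differed most, *Atf3* was level, at 2217 in iCreb5 cells and 2265 in tdTomato cells. The log2 change over all libraries was -0.22 ± 0.20 (SE, 95% interval -0.65 to 0.22, adjusted p = 0.652).

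Taken by litter, the median log2 difference of the 9 genes was -0.19, -0.30, 0.62 and 0.57 in litters 3, 4, 5 and 6. Litters 4, 5 and 6 each hold 1 library per group, and the same medians over all genes were not computed. The highest library was the iCreb5 library of litter 5 for 4 genes (*Jund*, *Fos*, *Fosb* and *Fosl1*), that of litter 6 for 4 (*Jun*, *Junb*, *Fosl2* and *Atf3*), and a tdTomato library of litter 3 for *Maf*. Over all genes tested, these 3 libraries were the highest for 7.92%, 6.56% and 6.3%. The difference between litter 3 and litters 4 to 6 was tested as an interaction. For *Fos* it was -1.04 ± 0.39 on the log2 scale (SE, limma, unadjusted p = 0.0184, adjusted p = 0.802), and for *Junb* -1.02 ± 0.41 (unadjusted p = 0.026, adjusted p = 0.802). No gene of the 16733 passed the adjusted threshold for this difference, and 1012 had an unadjusted p under 0.05. The macrophage marker sum was 7498 and 12063 in the iCreb5 libraries of litters 5 and 6, and 2684 to 6977 in the iCreb5 libraries of litters 3 and 4. Red cell marker sums were also high in litters 5 and 6, at 17235 and 17578 in iCreb5 cells and 24613 and 14049 in tdTomato cells, against 7898 or less in the libraries of litters 3 and 4. The part of either marker list in the *Fos* and *Junb* values was not tested.

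Other immediate early genes were set beside them. Of 29 on the list, 0 passed in either direction with limma, against 6.72% of all genes. With edgeR and DESeq2 0 passed as well, where 3.83% and 5.51% of all genes were called in the higher direction alone. With limma 1 had an unadjusted p under 0.05, the phosphatase gene *Dusp1* (log2 change 0.55, adjusted p = 0.197). At that level 9.93% of all genes were higher. The median log2 change of the list was -0.04. *Dusp1* passed within litters 4 to 6 (log2 change 1.05, limma, adjusted p = 0.00739). Without litters 5 and 6 in both groups, a setting chosen after the values were seen, 2 of the 29 were lower in iCreb5 cells, against 3.25% of all genes. They were the transcription factor gene *Klf2* (-0.79, adjusted p = 0.0251) and *Zfp36* (-0.60, adjusted p = 0.038), which encodes a protein that destabilises messenger RNA. Over the same 8 libraries the log2 change of *Fos* was -0.15 (adjusted p = 0.682) and that of *Junb* -0.082 (adjusted p = 0.911). With only the iCreb5 libraries of litters 5 and 6 left out, the antiproliferative gene *Btg2* was lower as well (-0.68, adjusted p = 0.0287), so that 3 of 29 were, against 2.98% of all genes. That setting takes out high values of 1 group alone. The iCreb5 library of litter 6 was among the top 2 for 22 of the 29, against 13.3% of all genes tested. That of litter 5 was among the top 2 for 10 of the 29, against 21.9%. The most abundant genes on the list were 2 heat shock genes that had been placed there with the immediate early genes. *Hspa1a* was at 42421 ± 15794 in iCreb5 cells and 44123 ± 19220.3 in tdTomato cells, and *Hspa1b* at 65655 ± 24598 in iCreb5 cells and 70863 ± 31129 in tdTomato cells. These 2 are near-identical copies among which reads may be split.

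Likeness to *Fos* was measured over the 12 libraries as the root mean square difference of log2(value + 1), after each gene was centred on its own mean in each group, among 13464 genes with a mean value of at least 50. The 3 genes nearest to *Fos* were *Ier2*, an immediate early gene, at 0.198, *4931440P22Rik* at 0.204 and *Zfp36* at 0.204, against a median of 0.611 over all candidates and 0.547 for the size of the *Fos* deviations themselves. The 3 nearest to *Atf3* were *Tnfsf9*, a ligand gene of the tumour necrosis factor family, at 0.125, *Ctsh*, which encodes a lysosomal protease, at 0.194, and *Cd83*, a surface protein gene of activated immune cells, at 0.197. *Cd83* was itself higher in iCreb5 cells (log2 change 0.85, adjusted p = 0.00852). *Jun* and *Maf* varied less, with deviations of 0.244 and 0.225. The nearest genes were *Acp5* (0.126), *Gpr137b-ps* (0.126) and *Rdh11* (0.133) for *Jun*, and *Glrb* (0.109), *2810006K23Rik* (0.125) and *Tgif1* (0.126) for *Maf*. *Glrb* passed in the other direction from *Maf*, with a log2 change of 0.58 (adjusted p = 0.0353), since the measure leaves out the group means.

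**Figure D3:**
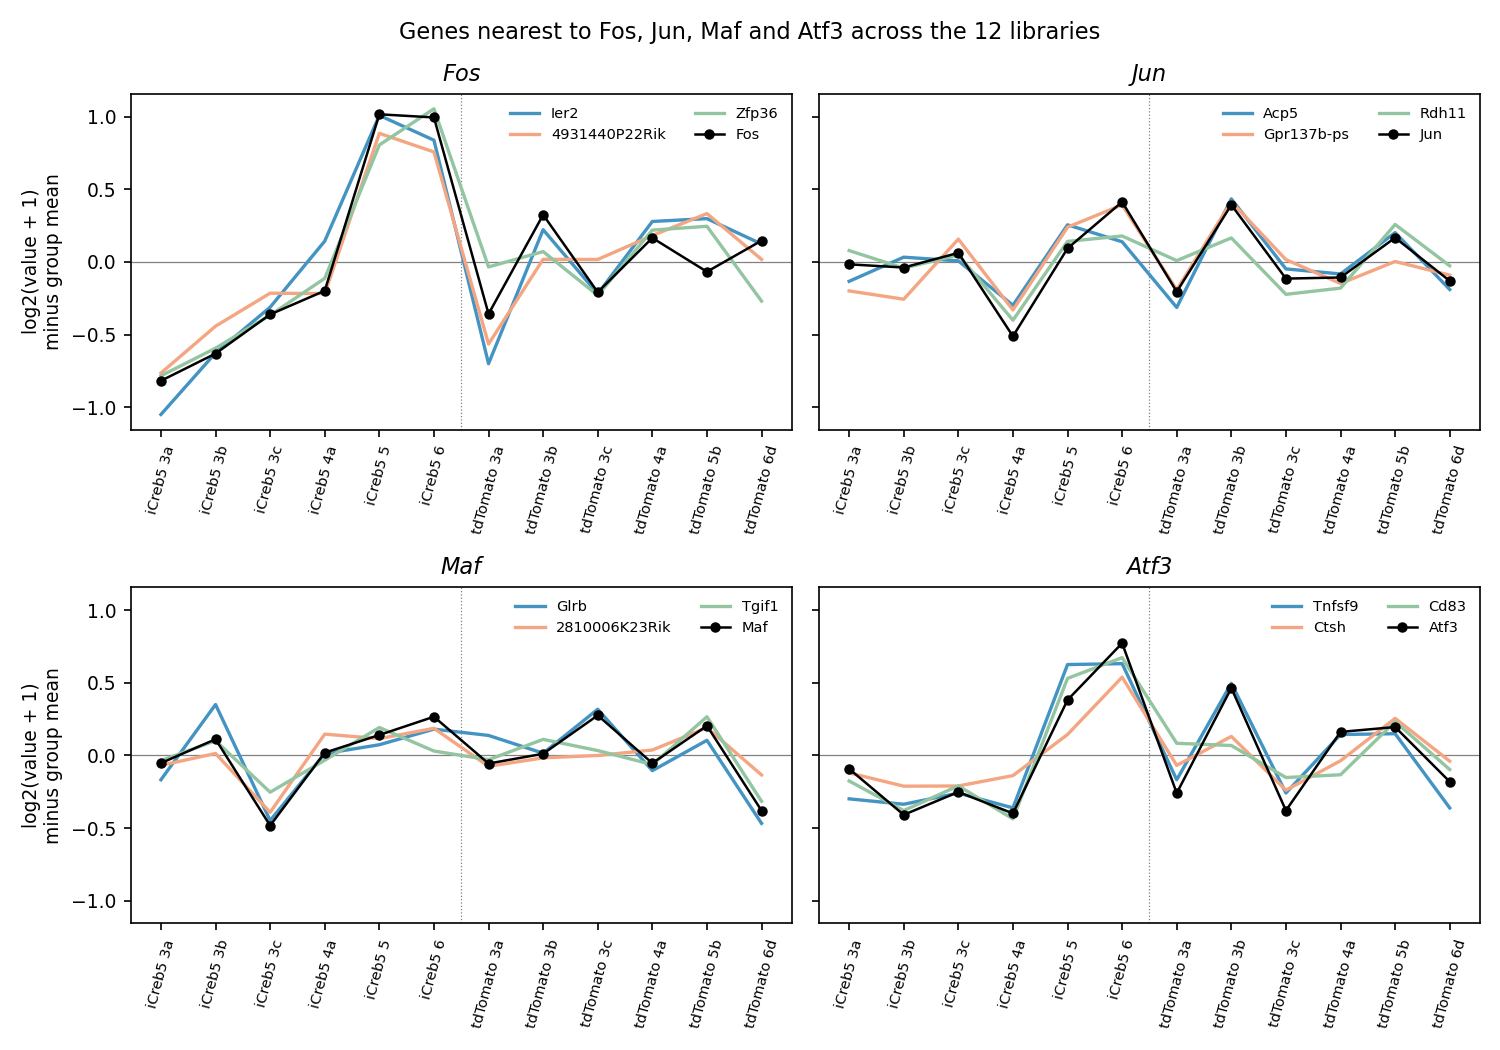
Deviation of log2(value + 1) from the gene's mean in its group (vertical axes) in each of the 12 libraries (horizontal axes), for *Fos*, *Jun*, *Maf* and *Atf3* in black and their 3 nearest genes in colour. *Fos*, *Ier2*, *Zfp36* and *4931440P22Rik* peak together in the iCreb5 libraries of litters 5 and 6.

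Levels of different genes were compared per kilobase of annotated exon (normalised counts divided by length), as means over the 12 libraries. Each length counts the exon bases of all annotated transcripts of a gene, from 1668 for *Jund* to 9680 for *Fosl2*. The RefSeq start of *Jund* lies 1210 bases upstream of its annotated start, so its length may be too short. The order and the family shares below hold for these lengths only. *Jund* was highest at 6594, followed by *Fos* at 5759.6, *Jun* at 3455 and *Junb* at 1324, at percentiles of 92.8 to 99.1 among 16722 genes tested with a known length. *Atf3* stood at 884, *Maf* at 79.8, *Fosl2* at 48.6, *Fosb* at 40.7 and *Fosl1* at 12. Among neighbours in this order, the ranges over libraries were apart only between *Atf3* and *Maf*. *Jund* was above *Fos* in 10 of 12 libraries and *Fosl2* above *Fosb* in 9 of 12. Within the Fos family, *Fos* made up 98.5 ± 0.129% of the summed level per length in iCreb5 cells and 98 ± 0.547% in tdTomato cells (SD, n = 6 each). Within the Jun family, *Jund* made up 55.7 ± 6.56%, *Jun* 32.1 ± 9.22% and *Junb* 12.1 ± 3.8% in iCreb5 cells, against 57.9 ± 4.76%, 32 ± 5.33% and 10.1 ± 1.53% in tdTomato cells. The lowest share of *Jun*, 19.7%, was in the iCreb5 library of litter 5, where *Jund* was highest.

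Exons of 5 of the 9 genes overlap those of a gene on the other strand. The library kit named in the labels does not mark strand, so reads within the shared exon bases cannot be assigned by strand. The number of shared bases was not measured. *Junb* overlaps *Prdx2*, a peroxiredoxin gene at 14507 ± 2229 in iCreb5 cells and 14697 ± 4333 in tdTomato cells, and *Fosl1* overlaps *Ccdc85b*, at 156 ± 36.1 in iCreb5 cells and 119.7 ± 59.1 in tdTomato cells. *Prdx2* is the more abundant of its pair, and its log2 change was 0.01 (adjusted p = 0.984). The antisense genes at *Jun*, *Jund* and *Maf* were counted at means of 7.92, 24.5 and 8.44 in iCreb5 cells and 8.24, 18 and 10.3 in tdTomato cells, far under their partners.

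Of 18 bZIP relatives 16 were tested, and 1 passed, *Creb5*, against 6.72% of all genes. *Atf2*, a close relative of Creb5, averaged 2271 ± 194 in iCreb5 cells and 2209.5 ± 311 in tdTomato cells (adjusted p = 0.879), and *Nfe2l1*, a stress response factor gene, averaged 2151 ± 906 in iCreb5 cells and 2316 ± 597 in tdTomato cells (adjusted p = 0.782). Within litters 4 to 6 alone, *Creb5* did not pass (log2 change 0.52, adjusted p = 0.0501), and *Nfe2l1* was lower in iCreb5 cells (-0.56, adjusted p = 0.0383). Of 19 kinases and phosphatases that act on AP-1 or its upstream MAP kinases, 1 rose and 0 fell, against 3.87% and 2.85% of all genes. The 1 that rose was *Dusp4*, a phosphatase of MAP kinases, at 286 ± 69 in iCreb5 cells and 131 ± 45.5 in tdTomato cells (SD, n = 6 each, log2 change 1.15, adjusted p = 0.00517). *Dusp4* did not pass within litters 4 to 6 alone (log2 change 0.77, adjusted p = 0.141). The kinase gene *Map2k2*, among the most abundant of the others, did not pass (adjusted p = 0.746).

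Of 18 genes listed as AP-1 targets 16 were tested, 4 fell and 0 rose, against 2.85% of all genes lower and 3.87% higher, with a median log2 change of 0.11. The matrix proteases *Mmp13* and *Mmp9* were at 15.1 ± 19.2 in iCreb5 cells and 77.2 ± 34.5 in tdTomato cells, and at 173 ± 59.3 in iCreb5 cells and 719 ± 214 in tdTomato cells (SD, n = 6 each; log2 changes -2.82 and -2.09, adjusted p = 0.00374 and 5.81e-05). In iCreb5 cells *Mmp13* had a median of 8.87 and a lowest value of 2.53, where 3 reads are worth 1.52 to 3.45. The size of its change thus rests on few reads. Its tdTomato values, all 49.9 or more, were enough by themselves to meet the filter on low values. *Spp1*, which encodes the bone matrix protein osteopontin, fell by 2.17 on the log2 scale (adjusted p = 0.000109), and *Timp1*, an inhibitor of matrix proteases, fell by 0.85 (adjusted p = 0.00228). *Mmp13* and *Spp1* are also in the hypertrophic chondrocyte marker list, of which 3 of 5 were lower (*Ihh*, *Mmp13* and *Spp1*), with summed levels of 6314 to 9834 in iCreb5 libraries and 10972 to 16655 in tdTomato libraries, and the osteoblast markers were lower as well. The part of such cells in these changes was not tested. The 4 fell too without litters 5 and 6 in both groups, at log2 changes from -3.16 to -0.96, where 3.25% of all genes were lower. They also fell within litters 4 to 6 alone, where 2.2% of all genes were lower and 1.91% higher. The chemokine gene *Ccl2* rose there as well (1.43, limma, adjusted p = 0.0453). The matrix genes *Fn1* and *Tnc*, the most abundant of the others, averaged 13076 ± 5101 in iCreb5 cells and 11113 ± 2011 in tdTomato cells for *Fn1* (adjusted p = 0.749) and 14533 ± 8344 in iCreb5 cells and 7201 ± 2796 in tdTomato cells for *Tnc* (adjusted p = 0.199). *Tnc* was higher in iCreb5 cells without litters 5 and 6 (log2 change 1.21, adjusted p = 0.0327), where 4.08% of all genes were.

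**Figure D4:**
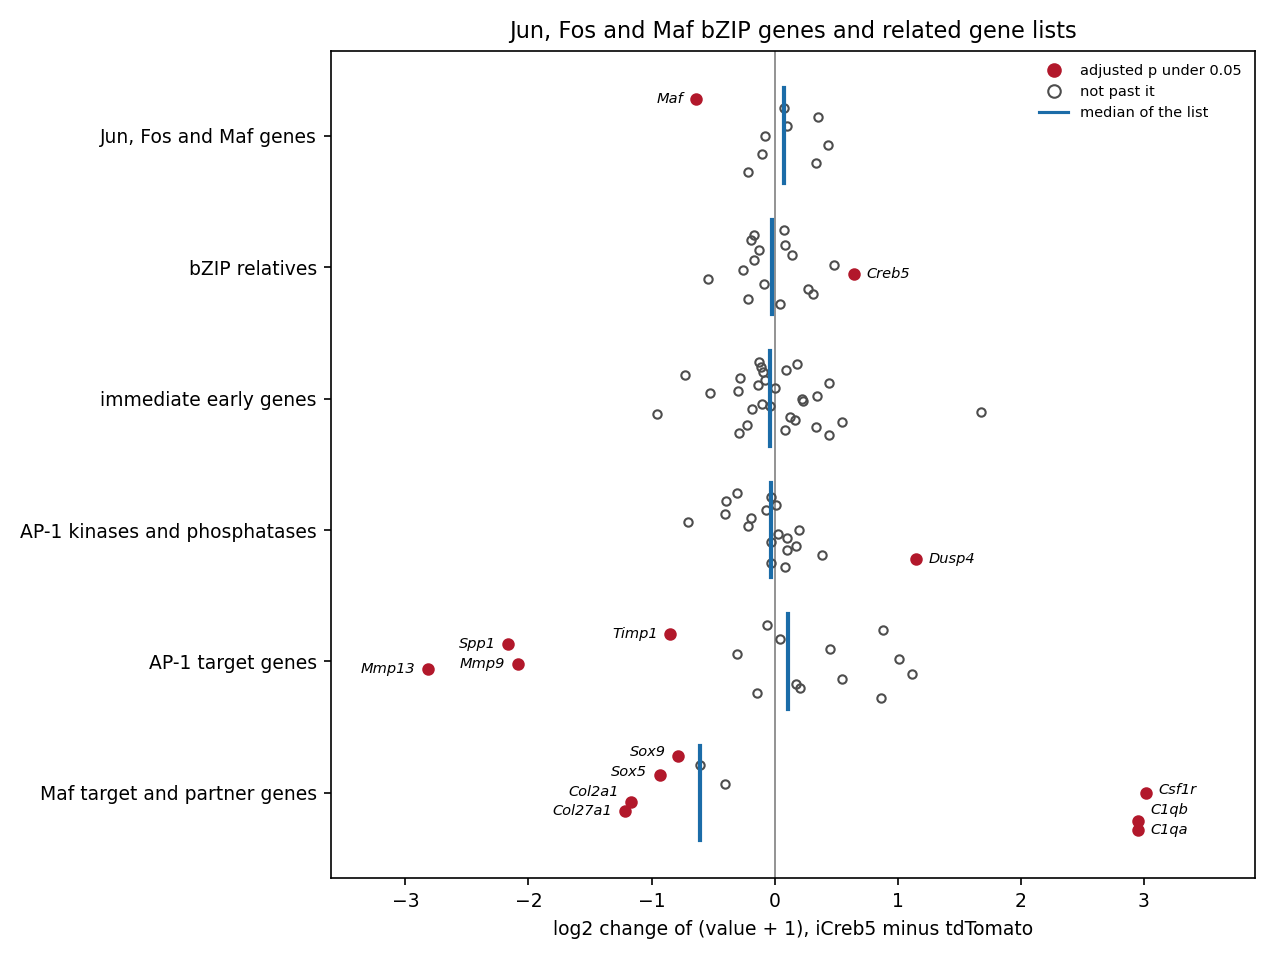
Log2 change (horizontal axis, iCreb5 minus tdTomato, of value + 1) of the tested genes in each list, with filled points for an adjusted p under 0.05 and a bar for the list's median. *Maf* is the only filled point among the 9 Jun, Fos and Maf genes, and the 4 filled AP-1 targets lie between -2.82 and -0.85.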

How the data were processed

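RNA of sorted E14.5 limb mesenchyme was read from 1 deposited table with 12 labelled libraries, grouped by title and litter label. The submitters' processing notes name FastQC, STAR, Salmon, DESeq2 and the build mm10, with neither roles nor versions. The authors' annotation and their handling of bovine reads are not known here. The deposited values are normalised signal per gene, counts divided by a size factor of the library. The values themselves show this, since division by the worth of 1 read left whole numbers in 100% of cases (tolerance 1e-06). Recovered depth was 9.02 to 53.3 M reads (M for 1000000), and 3 reads were worth 1.48 to 8.38 units, which covers counting error only. The 8 columns of a deposited P0 table carry names of no labelled sample and were not used.

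Symbols were matched to 54409 of 54532 identifiers, and gene positions and exon lengths come from the mm10 GENCODE annotation. The test was limma 3.58.1 in R 4.3.3 on log2(value + 1), two-sided, with the eBayes trend and no covariate, over the 16733 genes at 10 or more in at least 6 of 12 libraries. P-values were adjusted by Benjamini-Hochberg over these genes and called under 0.05. Folds are ratios of geometric means of value + 1. Alternatives were edgeR 4.0.16 and DESeq2 1.42.0 on recovered reads, pseudocounts of 0.1 and 10, no filter, equal totals, litter as a block, litter sets and omitted libraries.

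The genes and the lists set beside them were chosen with earlier results of these data known. From each list the text names up to 4 genes with the largest change in each direction among those past the threshold, the 2 most abundant of the others, and all genes behind a count of 5 or fewer. Some genes that this rule would name are not reported here.

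The labels give 4 litters while the design text speaks of 6, and litter and batch cannot be told apart. Deviations from the group means correlated across genes at 0.129, 0.206, 0.336 and 0.0333 between the groups of litters 3, 4, 5 and 6, against -0.308 to 0.282 for the 12 unmatched pairs of litters. The pairing is taken from the litter label alone. Littermate libraries are not independent litters, so the p-values describe the scatter among these 12 libraries.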

Additional observations from a re-analysis of the deposited data

How the results depend on the processing

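*Maf* was lower in iCreb5 cells under all 25 alternatives and passed the threshold in 23, with a log2 change of -0.72 to -0.55 when 1 library was left out. It did not pass with the replicate block and litter 3 averaged (-0.53) or in litters 4 to 6 alone (-0.42). In litter 3 alone it passed (-0.86, limma, adjusted p = 0.0434). All of these fits rest on fewer values than the main fit and differ in their litter terms. The part of sample number in these outcomes was not tested. *Atf3* was lower under all 25 without passing. The other 7 genes, none past the threshold over all libraries, changed sign somewhere. Within litter 3 the log2 change was -0.16 for *Junb*, -0.23 for *Jund* and -0.19 for *Fos*, and within litters 4 to 6 it was 0.86 for *Junb*, which passed, and 0.27 for *Fosb*. Without the iCreb5 libraries of litters 5 and 6 it was -0.023 for *Jun*, -0.19 for *Junb*, -0.32 for *Jund*, -0.17 for *Fos* and -0.16 for *Fosl1*. Without litters 5 and 6 in both groups, an alternative chosen after seeing the data, it was -0.014, -0.082, -0.18, -0.15 and -0.046 for the same 5 genes. Without tdTomato libraries 3a and 5b it was -0.021 for *Jund*, 0.011 for *Fosb* and -0.54 for *Fosl1*. *Fosb* was at 0.083 under the block with litter 3 averaged, 0.17 with edgeR and 0.16 with DESeq2. With 1 library left out, the range was -0.12 to 0.22 for *Jund*, -0.41 to 0.13 for *Fosb*, -0.33 to 0.85 for *Fosl1* and -0.30 to 0.074 for *Fosl2*. The cause of these shifts was not tested.

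Of the 9 genes, 1 was called higher in litters 4 to 6 alone, and 0 lower there and under the block with litter 3 averaged. Over all genes, 395 were higher and 292 lower in litter 3 alone, 320 were higher in litters 4 to 6, and 728 were lower with the replicate block alone, under which *Maf* stayed at -0.64. DESeq2 called 922 higher and 715 lower. Equal library totals gave 799 higher and 382 lower, against 648 and 477 over all libraries as reported. Depth limits *Fosl1* above all, and with 6 libraries a group the interval of *Fos* still includes a log2 change of 0.94.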

Other observations

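The heat shock gene *Hspa1a* had its lowest value of all 12 libraries, 16300.2, in the iCreb5 library of litter 5, in which *Fos* had its highest, 28078.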
